A study of Homo sapiens with 3 samples.

Results

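The CREBBP peaks next to the centromeres of chromosomes 2, 10 and 16 were examined, together with those of a window at 2q21 away from the centromere. They came from SC1, a human lymphoma cell line labelled as diffuse large B-cell lymphoma. The windows were fixed by position on build hg19, counted from 1. A peak was a member when it overlapped chromosome 2 from 90280001 to 98000000 (2p11 to 2q11), chromosome 2 from 132500000 to 133500000 (2q21), chromosome 10 from 38500000 to 43500000 (10p11 to 10q11), chromosome 16 from 31500000 to 35500000 (16p11) or chromosome 16 from 46300000 to 47300000 (16q11). This gave 1037 of the 215598 CREBBP peaks on chromosomes 1 to 22 and X, 0.481% of the list in 0.617% of the length. The rest of chromosomes 2, 10 and 16 held 32575 peaks and is the comparison used throughout.

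Chromatin immunoprecipitation with sequencing (ChIP-seq) had been done for CREBBP, for the histone mark H3K27ac (acetylation of lysine 27 on histone H3) and for an input without antibody, with 1 sample each. Each peak is named with DMSO and rep2, left without explanation in the labels, so whether the lists come from a second replicate is not known here. No CREBBP-deficient sample is described, although the series title concerns one. With 1 library per group no value has a replicate error, and differences between cultures could not be measured. The members were chosen by position, and the windows themselves were selected on known CREBBP results, among them the high −log10 q and background of their peaks, so numbers, q values, folds and backgrounds of CREBBP peaks are given as descriptions with no test; the H3K27ac list did not enter the rule.

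CREBBP, also called CBP, is a lysine acetyltransferase that is brought to enhancers and promoters by transcription factors, where it acetylates H3K27 and other residues. It is often mutated in germinal-centre lymphomas. The DNA beside human centromeres is rich in satellite repeats, short units repeated in tandem over long distances and usually packed as heterochromatin, and in segmental duplications. An assembly such as hg19 holds few of these copies and leaves much of the centromere unsequenced, so reads from many copies can align to a few positions. Read alignment and repeat content could not be examined here, since no genome or annotation of build hg19 was at hand. No gene was therefore assigned to a peak.

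Most peaks in the windows were ordinary small peaks, and most of the strong ones were packed into 9 short stretches. The authors' fold enrichment had a median of 2.17 in the windows (interquartile range 1.96 to 2.60) and 2.17 in the rest of chromosomes 2, 10 and 16 (2.01 to 2.60). Fragments at the summit had a median of 5 (4 to 8) in the windows and 5 (4 to 6) in the rest. Fragments and background were worked out here from the deposited fold and −log10 p. Fold was taken as (fragments + 1) / (background + 1), with p as an upper Poisson tail, so both are inferences and hold at the summit. The median width was 378 bp in the windows and 360 bp in the rest. The largest −log10 q was 815 in the windows and 22.1 in the rest of the 3 chromosomes, and the most fragments at a summit were about 6545 in the windows and 250 in the rest. Other chromosomes reached higher, with a largest −log10 q of 949 in the whole list and about 16511 fragments on chromosome 1 in the bin at 121 Mb.

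Of the 1037 peaks in the windows, 135 passed q of at most 0.05, 13.0% (exact Clopper-Pearson 95% interval 11.03 to 15.2%, covering counting error only). In the rest of chromosomes 2, 10 and 16 the number was 529, 1.62% (1.49 to 1.77%), and in the whole list the share was 1.81%. The share was highest in 16q11, at 31.2% (24 of 77 peaks), followed by 10p11 to 10q11 at 18.2% (34 of 187). It was 13.8% in 2p11 to 2q11 (51 of 369), 12.04% in 2q21 (13 of 108) and 4.39% in 16p11 (13 of 296). The windows were selected on such values, so these shares are a description.

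**Figure D1:**
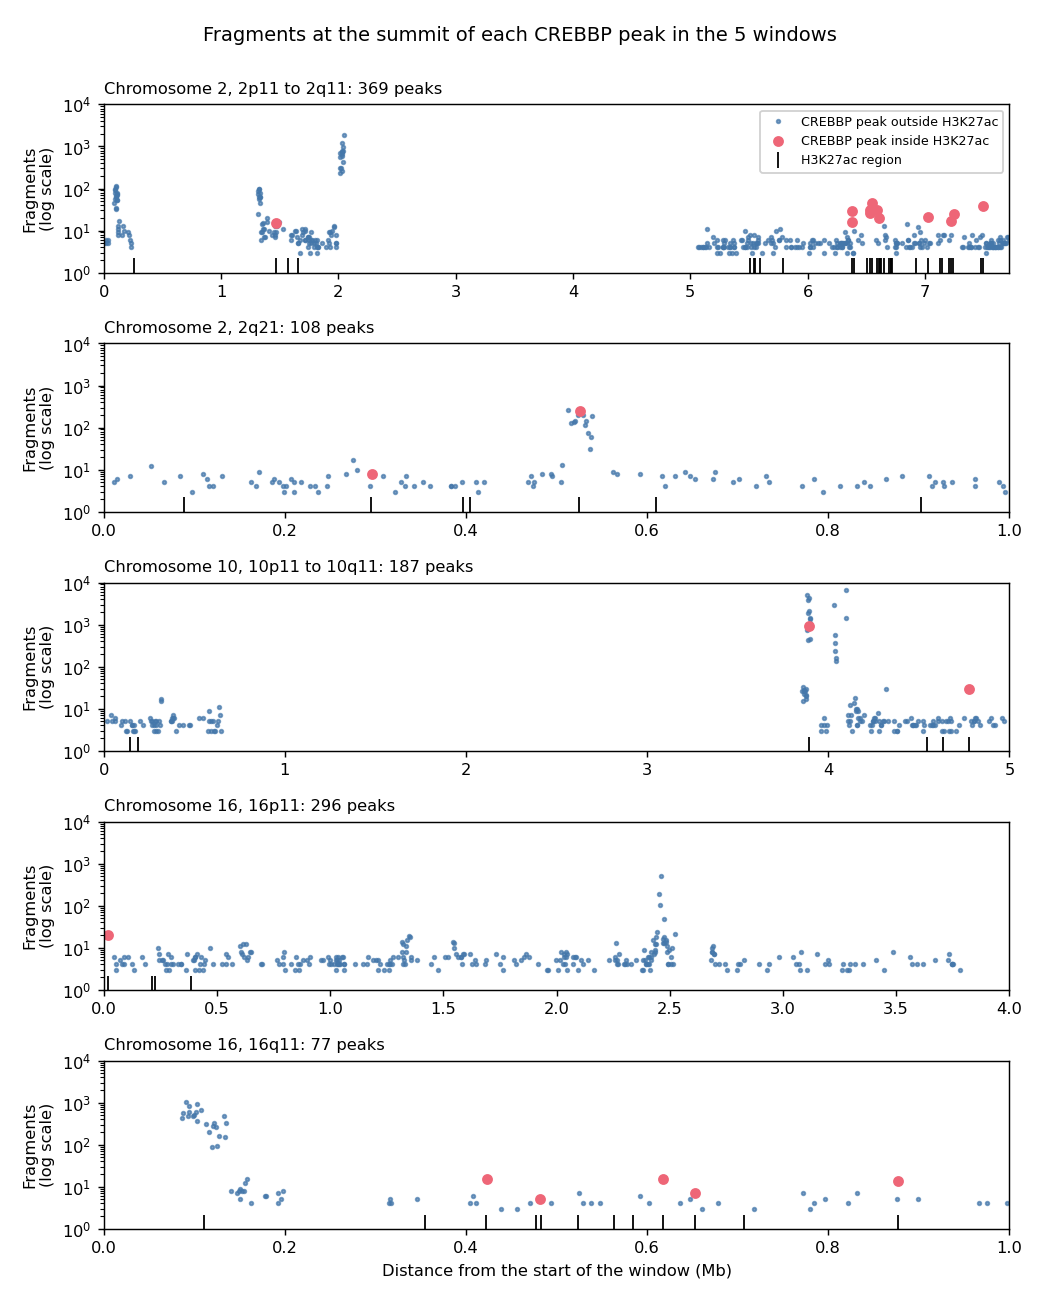
Solved fragments at the summit of each CREBBP peak (log scale) against distance from the start of its window in Mb, for the 5 windows. Peaks inside an H3K27ac region are red, other peaks are blue, and black ticks mark H3K27ac regions. Narrow columns of peaks rise to about 6545 fragments on chromosome 10 and to 1907 on chromosome 2, and most other peaks stay near 5.

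Peaks were not spread evenly. The longest stretches with no CREBBP peak ran for 3.02 Mb in 2p11 to 2q11 (between 92325949 and 95342426), for 3.21 Mb in 10p11 to 10q11 (between 39148196 and 42356474) and for 11.1 Mb between the windows of chromosome 16 (between 35282496 and 46385927). A further 1.08 Mb of 2p11 to 2q11 was empty between 90516016 and 91595315. The windows held 55.4 peaks per Mb against 72.3 in the rest. With peakless stretches of 0.5 Mb or more left out of the length, the order turned to 93.3 per Mb in the windows and 74.4 in the rest. On that length the windows ranged from 78.3 per Mb in 16p11 and 84.2 in 16q11 to 102 in 2p11 to 2q11, 104 in 10p11 to 10q11 and 108 in 2q21. At the window edges the peaks just inside had 3 to 424 fragments over 10 edges, and those just outside had 3 to 9 fragments over the 8 edges that had one. The peak with 424 fragments was the first after the empty stretch of chromosome 16. No edge peak outside a window reached a q of 0.05.

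A background of at least 20 fragments was found at 90 of the 1037 peaks in the windows, 8.68% (7.04 to 10.6%), against 14 of 32575 in the rest of the 3 chromosomes, 0.043% (0.023 to 0.072%), and 0.196% of the whole list. This limit was set after the values were seen. Joined within 20 kb, the 90 peaks formed 9 stretches that together spanned 0.194 Mb and held 100 peaks in all. Over the whole list, the windows held 21.3% of the 422 peaks with such a background and 46.5% of the 155 with at least 50 fragments. They held 35 of the 68 peaks with a −log10 q of 50 or more, and these 35 lay in the 9 stretches. Of the 197 peaks of the list with a fold of 5 or more, 2 lay in the windows (1.02%, where the windows held 0.481% of all peaks), neither of them in a stretch, against 23 in the rest of the 3 chromosomes. Of the 5 with a fold of 10 or more none lay in the windows.

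The 3 stretches of chromosome 10 lay at 10q11, on the far side of the peakless interval. The first and the last of them had more fragments at the median than any of the other stretches. The first ran for 16.5 kb from 42384261 to 42400723 and held 13 peaks that covered 45.2% of it. All 13 had a q of at most 0.05, with 439 to about 5187 fragments (median 1350) over backgrounds of 230.0 to 2118 (median 689). Its leading peak, at 42386982 to 42387471, had the largest −log10 q of the windows, 815, with about 3946 fragments over a background of 1228 and a fold of 3.21. The second stretch of the chromosome, 14.7 kb from 42529293, held 6 peaks with 137 to 2879 fragments (median 304), fewer at the median than the strongest stretch of chromosome 2 or that of 16q11. The third was 2.60 kb from 42597683 to 42600282 and held 2 peaks. One of these, at 42599615, had the most fragments of any member, about 6545, with a fold of 1.86 over a background of 3512. The other had 1402 fragments over 479 and a fold of 2.93.

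The longest stretch was in 16q11, 49.6 kb from 46385927 to 46435521. It began with the first peak after the 11.1 Mb without peaks. Its 23 peaks covered 48.2% of the stretch, and 22 of them had a q of at most 0.05. They had 86 to 1012 fragments (median 424) over backgrounds of 44.3 to 381 (median 163). The strongest, at 46390816 to 46392635, had 1012 fragments, a fold of 2.65 and a −log10 q of 152. The peak at 46403498 to 46407051 was 3554 bp wide, the widest member and as wide as any CREBBP peak of the list, with 947 fragments and a fold of 2.62. The stretch in 16p11 was weaker and shorter, 11.1 kb from 33953094 to 33964218, with 3 peaks of 101, 188 and 506 fragments. The strongest of these had a fold of 3.45 over a background of 146. It lay far from the peakless interval, which began at 35282496.

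Chromosome 2 held 4 stretches of differing strength. The strongest ran for 35.4 kb from 92290597 to 92325949 and ended where the 3.02 Mb without peaks began. Its 15 peaks had 239 to 1907 fragments (median 661) over backgrounds of 103 to 752 (median 330), and 14 had a q of at most 0.05. The peak nearest to the empty interval, at 92324116 to 92325949, was the strongest of the window, with 1907 fragments, a fold of 2.53 and a −log10 q of 265. The other stretches of 2p11 to 2q11 lay on either side of the 1.08 Mb without peaks, each set apart from the empty interval by a listed peak or more. The one at 90373575 to 90393288 held 15 peaks, of which the 10 with a high background had 56 to 117 fragments (median 77). The one at 91596696 to 91614747 held 10 peaks, of which the 7 with a high background had 63 to 96 fragments (median 78). The backgrounds of these 10 and 7 peaks were also alike, with medians of 39.7 and 34.2, and their folds had medians of 2.31 and 2.07. The stretch in 2q21, 26.8 kb from 133012395 to 133039183, lay outside the centromeric window and held 13 peaks, of which the 11 with a high background had 73 to 261 fragments (median 147). Its leading peak, at 133012395 to 133013455, had 261 fragments over 79.5, a fold of 3.26 and a −log10 q of 52.7.

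**Figure D2:**
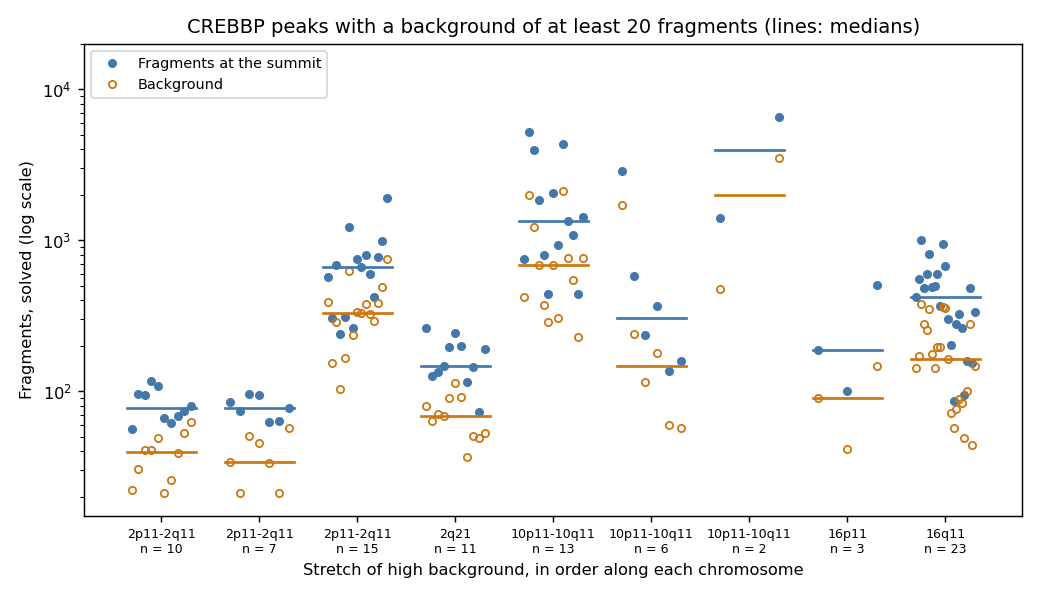
Solved fragments at the summit (filled) and background (open) of the 90 peaks with a background of at least 20 fragments, on a log scale, by stretch; lines are medians. The stretches of 10p11 to 10q11 reach about 6545 fragments, while the first stretches of 2p11 to 2q11 have medians of 77 and 78.

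Within the 90 peaks of high background, fragments and background moved together. Their Spearman rho was 0.97 across the 90 peaks, while background and fold had a rho of -0.20 and fragments and fold one of 0.038. Over the 947 members with a lower background fragments and fold had a rho of 0.59. In the rest of chromosomes 2, 10 and 16 it was 0.63 over 32575 peaks. These are relations across peaks of 1 library that share stretches and a solution from the same deposited values, so they describe the list. The median fold of the 90 peaks was 2.18 (1.88 to 2.79). Their median width was 525 bp, against 371 bp for the 947 members with a lower background. Between starts of neighbouring peaks of high background the median distance was 1068 bp in the first stretch of chromosome 10, 1770 bp in the third of chromosome 2, 1941 bp in 16q11 and 2386 bp in 2q21.

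Peaks around a stretch were intermediate. Within the stretches 91 of the 100 peaks passed q of at most 0.05, and outside them 9 of 21 peaks up to 10 kb away did (42.9%, 21.8 to 66.0%). The number was 17 of 78 from 10 to 50 kb away (21.8%, 13.2 to 32.6%) and 4 of 52 from 50 to 100 kb away (7.69%, 2.14 to 18.5%). From 100 to 500 kb it was 3 of 244 (1.23%, 0.254 to 3.55%), and beyond that 11 of 542 (2.03%, 1.02 to 3.60%), where the rest of the chromosomes had 1.62%. The median background was lower along the same distances, with 4.61 fragments up to 10 kb, 1.99 from 10 to 50 kb, 1.85 from 50 to 100 kb and 1.3045 beyond. Of the 44 members with a q of at most 0.05 outside the stretches, 26 lay within 50 kb of one.

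**Figure D3:**
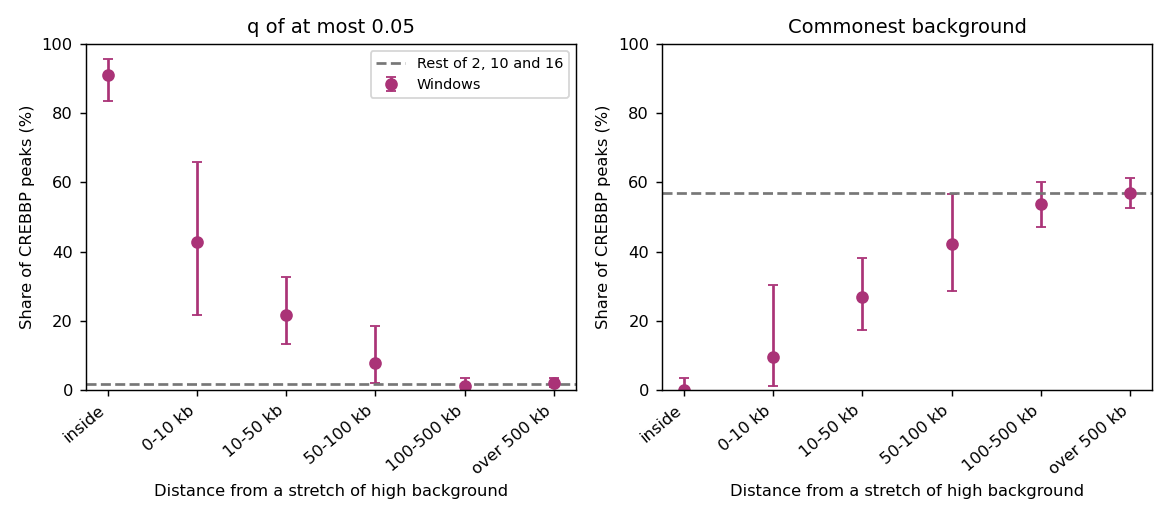
Share of CREBBP peaks in the windows with a q of at most 0.05 (left) and at the commonest background of 1.3045 fragments (right), in percent, by distance from a stretch; bars are exact 95% intervals and the dashed line is the rest of chromosomes 2, 10 and 16. The share with q of at most 0.05 falls to 1.23% at 100 to 500 kb, and the share at the commonest background reaches 57.01% over 500 kb away.

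The members with the largest folds lay outside the stretches. The largest, 5.27, was in 16p11 at 32817143 to 32817917, with 14 fragments over a background of 1.85, 931 kb from any H3K27ac region. A peak in 16q11 at 46457950 to 46458577 had a fold of 5.23 with 15 fragments over 2.06, 46.7 kb from H3K27ac. The third, at 96829453 to 96830043 in 2p11 to 2q11, had a fold of 4.96 with 46 fragments over 8.48, and it was inside an H3K27ac region. The fourth, on chromosome 2 at 91644794, had a fold of 4.87 with 11 fragments, and the fifth, on chromosome 10 at 42364062, a fold of 4.86 with 28 fragments. The largest fold of 2q21 was 3.84, at 132671824, with 9 fragments. Some wide members were weak. The second widest, 2816 bp at 38883590 to 38886405 in 10p11, had 7 fragments at its summit and a −log10 q of 0.68.

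Acetylated H3K27 was rarely found at these CREBBP peaks. Of the 1037 peaks, 22 overlapped an H3K27ac region by at least 1 bp, 2.12% (1.33 to 3.19%), against 1744 of 32575 in the rest of chromosomes 2, 10 and 16, 5.35% (5.11 to 5.60%), and 5.06% in the whole list. The windows differed, and 16q11 did not have the lower share. It had 6.49% (5 of 77 peaks), above the 5.35%, though the rest of chromosome 16 alone had 9.68%. None of these 5 peaks had a q of at most 0.05, and their largest −log10 q was 0.305. The share was 3.25% in 2p11 to 2q11 (12 of 369) and 1.85% in 2q21 (2 of 108). It was 1.07% in 10p11 to 10q11 (2 of 187) and 0.338% in 16p11 (1 of 296). For the pooled windows the difference was wider among peaks with a q of at most 0.05. Of these, 6 of 135 lay inside in the windows (4.44%), against 66.5% of the 529 in the rest. These sets were unlike in background, with medians of 49.0 fragments in the windows and 3.90 in the rest. In the windows 91 of the 135 lay in the stretches, and of the 44 others 4 overlapped an H3K27ac region. No test was run, since each list is 1 library and neighbouring peaks are not independent. Fewer H3K27ac regions were at hand in the windows. With peakless stretches of 0.5 Mb or more left out they covered 0.768% of the windows and 1.25% of the rest, and the part of this in the shares was not tested.

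Peaks of like background differed in the same direction, though for most members the share was near nil in both parts. At the commonest background 0 of 485 window peaks lay inside H3K27ac regions (0 to 0.758%), against 53 of 18507 in the rest (0.286%). Above that and up to 2 fragments it was 1 of 246 (0.407%, 0.0103 to 2.24%) against 116 of 9516 (1.22%). At 2 to 3 fragments it was 0 of 90 (0 to 4.02%) against 186 of 2393 (7.77%). At backgrounds of 3 to 5 fragments 2 of 63 peaks in the windows lay inside H3K27ac regions (3.17%, 0.387 to 11.002%), against 343 of 965 in the rest (35.5%, 32.5 to 38.7%). At 5 to 10 fragments it was 9 of 37 (24.3%, 11.8 to 41.2%) against 595 of 721 (82.5%, 79.6 to 85.2%). At 10 to 20 fragments it was 8 of 26 (30.8%, 14.3 to 51.8%) against 442 of 459 (96.3%, 94.1 to 97.8%). The 26 include peaks of the stretches, none of which lay inside, and these lowered the share. With the stretches left out it was 8 of 16 (24.7 to 75.3%), still below the rest. At 20 or more 2 of all 90 window peaks lay inside (2.22%, 0.270 to 7.80%), against 9 of 14 in the rest (64.3%, 35.1 to 87.2%). This last class is not one of like background, since 72 of the 90 window peaks and 1 of the 14 others had 50 fragments or more. At 20 to 50 fragments 0 of 18 window peaks lay inside (0 to 18.5%), against 9 of 13 in the rest of the 3 chromosomes (69.2%, 38.6 to 90.9%) and 183 of 249 in the whole list outside the windows (73.5%, 67.6 to 78.9%). At 50 or more it was 2 of 72 in the windows (2.78%, 0.338 to 9.68%), against 0 of 1 in the rest of the 3 chromosomes and 9 of 83 in the whole list outside the windows (10.8%, 5.08 to 19.6%). Peaks of the highest backgrounds were thus mostly outside H3K27ac regions in the windows and elsewhere in the list.

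**Figure D4:**
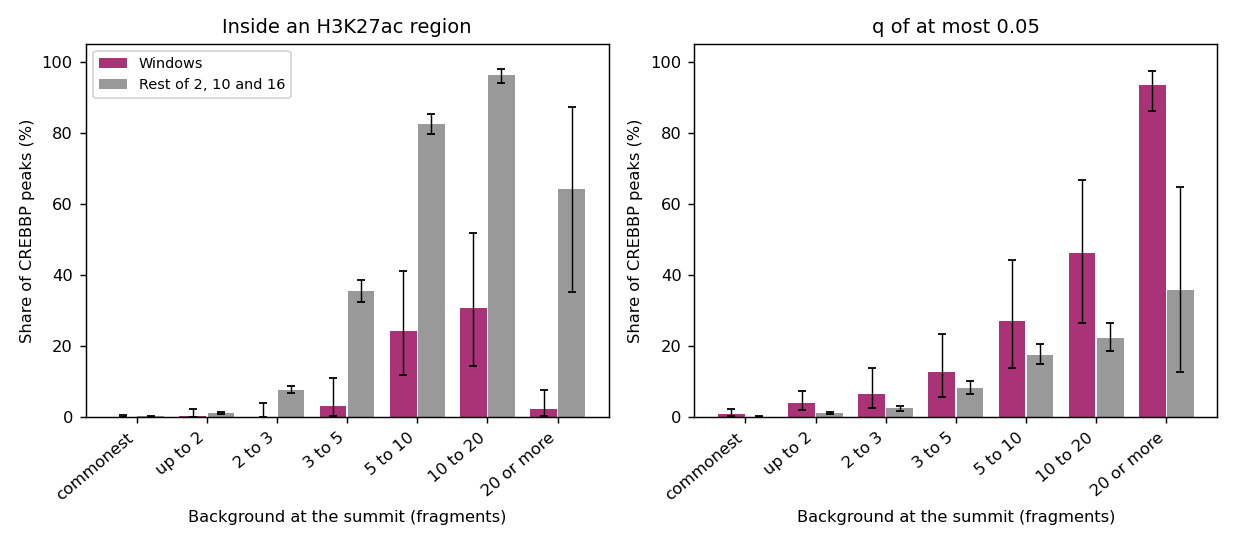
Share of CREBBP peaks inside an H3K27ac region (left) and with a q of at most 0.05 (right), in percent, by solved background at the summit, in the windows and in the rest of chromosomes 2, 10 and 16; error bars are exact 95% intervals. At 10 to 20 fragments 30.8% of window peaks and 96.3% of the rest lie inside H3K27ac regions. With the stretches of high background left out, 8 of 16 window peaks of this class lie inside.

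H3K27ac regions touched 3 of the 9 stretches. On chromosome 10 a region of 954 bp at 42394393 to 42395346 had an H3K27ac fold of 12.3, the sixth largest of the 61 regions in the windows. It met the edge of a CREBBP peak of 2420 bp at 42392219 to 42394638, with 927 fragments. In 16q11 a region of 718 bp at 46410508 to 46411225, with a fold of 8.01, lay within the stretch but met no CREBBP peak, and the nearest peak of high background was 1.59 kb away. In 2q21 a region of 1178 bp at 133024872 to 133026049, with a fold of 3.25, held a CREBBP peak of 245 fragments. The other stretches had no region, and their nearest ones were 99.3 and 136 kb away for the weaker stretches of 2p11 to 2q11, 353 kb for the strongest, 134 and 202 kb for the others of chromosome 10 and 2067 kb in 16p11.

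Parts of the windows held CREBBP peaks and no H3K27ac region, in intervals that were largely without CREBBP peaks too. From 31886131 on chromosome 16 to 46410508 no region was listed over 14.5 Mb, which included the 11.1 Mb without peaks. This interval held 277 CREBBP peaks. Of these, 265 were among the 296 peaks of 16p11, 12 of the 265 with a q of at most 0.05, and the others were the first peaks of 16q11. On chromosome 2 the interval of 3.85 Mb from 91937285 to 95786686, of which 3.02 Mb was peakless, held 106 members, 17 of that strength. On chromosome 10 the interval of 3.70 Mb from 38692716 to 42394393, of which 3.21 Mb was peakless, held 62 members, 16 of that strength. In the rest of chromosomes 2, 10 and 16 the share of that strength was 1.62%. The numbers for the intervals include peaks of the stretches. A background of at least 20 fragments was found at 15 of the members on chromosome 2, 7 on chromosome 10 and 3 in 16p11. On chromosome 2, 14 of the 17 belonged to the stretch at 92290597 to 92325949. The regions were unevenly spread. The windows held 32 regions in 2p11 to 2q11, 7 in 2q21, 6 in 10p11 to 10q11, 4 in 16p11 and 12 in 16q11, or 3.26 per Mb against 6.43 in the rest. On the length outside peakless stretches it was 5.49 against 6.61, with 13.1 in 16q11 and 1.06 in 16p11.

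The H3K27ac regions of the windows were of ordinary strength. Their median fold was 5.65 (interquartile range 2.91 to 7.98), against 4.73 (3.03 to 7.83) for the 2896 regions in the rest, and their median width was 1200 bp against 1432 bp. A CREBBP peak lay in 20 of the 61, 32.8% (21.3 to 46.0%), against 1439 of 2896 in the rest, 49.7% (47.9 to 51.5%), and 49.0% of the whole list. A peak passing the q threshold was held by 6 of the 61 (9.84%, 3.70 to 20.2%), against 337 in the rest (11.6%, 10.5 to 12.9%) and 11.4% of the whole list.

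The widest H3K27ac regions lay together in 2q11. The widest, 6.70 kb at 96809353 to 96816048, had a fold of 9.31 and held 2 CREBBP peaks of 26 and 31 fragments, neither with a q of at most 0.05. The second, 3.25 kb at 96873305, held 1 peak of 31 fragments over a background of 19.4. The third, 3.07 kb at 96827916 to 96830988, held the peak of fold 4.96 described above, whose −log10 q of 14.6 was the largest outside the stretches. The fourth, 2.81 kb at 96889507 to 96892320, had an H3K27ac fold of 20.3 and a CREBBP peak of 20 fragments over 5.27. The fifth, 2.74 kb at 132588562 in 2q21, had a fold of 2.91 and no CREBBP peak. The region with the largest H3K27ac fold, 27.7, was 350 bp wide at 96899874 and held none either. The CREBBP peaks in these wide regions of 2q11 had 20 to 46 fragments, and the 100 peaks of the stretches had 31 to about 6545. The stretches were defined by a high background, so high fragment numbers there follow from that choice.

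Other parts of the list with several peaks of high background fell into both kinds. Of the 21 bins of 1 Mb with at least 5 such peaks, 6 were in the windows. Of the 15 others, 7 had none of these peaks inside an H3K27ac region, among them chromosome 4 at 49 Mb with 16 peaks. In 7 others most of them were inside, among them chromosome 14 at 106 Mb with 11 of 11. By this count the bins at 16q11 and 10q11 came first and second in the list, with 23 and 21 peaks, of which 0 and 1 lay inside an H3K27ac region.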

How the data were processed

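CREBBP, H3K27ac and input ChIP-seq samples of SC1 cells were labelled, and a peak list was used for 2 of them. Input reads were not used here. MACS2, Bowtie2, fastp and STAR, with build hg19, are named per the submitters' processing notes. Which step each did, its version, the control library and any pooling are details not given in the sources used here. The authors deposited narrow CREBBP peaks and broad H3K27ac regions, each with a fold enrichment (a ratio), −log10 p, −log10 q and a score, of which the score was not used. Per the layout of the deposited lists, CREBBP values belong to the summit. All are the authors' own values and only describe peaks within a list; library depth is not stated.

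From these, peaks on chromosomes 1 to 22 and X were kept, and 128 CREBBP peaks and 17 H3K27ac regions on others were not used. Length runs to the last position that either list covers. Whole fragments and backgrounds were solved from fold and −log10 p, within 0.001 plus the rounding of fold for 215592 peaks. For 4 members the best whole number missed by 0.0032 to 0.011, and these are given as approximate. The smallest −log10 p of the CREBBP list was 1.302, so weak peaks are included. Overlap meant at least 1 bp. Shares carry exact Clopper-Pearson 95% intervals, which treat peaks as independent.

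Positions named are, by rule, the peaks with the largest −log10 q, fold and fragments of each window, the 5 largest folds, the 5 widest peaks and H3K27ac regions, peakless stretches and edge peaks; others were chosen after their values were seen. The members, lists and alternatives were chosen with earlier results of these data known. In place of sequence, positions are given. Alternatives were other overlaps, thresholds, window edges, comparison chromosomes and matched backgrounds. Python 3.11.15, numpy 2.4.6, pandas 2.3.3, scipy 1.17.1 and matplotlib 3.10.9 were used. On simulated data the solution returned 700 of 700 fragment numbers, made with the formula it assumes, and the overlap code was right for 3000 of 3000 intervals.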

Additional observations from a re-analysis of the deposited data

How the results depend on the processing

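The share of peaks with a q of at most 0.05 stayed higher in the windows than in the rest under every alternative run. It was 10.8% with windows widened by 0.5 Mb and, in settings added after seeing the data, 4.70% without the stretches of high background and 1.03% at the commonest background alone, where the rest had 0.222%. The lower share of the pooled windows inside H3K27ac regions also kept its direction. It was 4.44% with CREBBP peaks of q at most 0.05 (66.5% in the rest), 0.964% with the upper 50% of H3K27ac regions (2.77%) and 3.32% with widened windows (5.34%). The sets with q of at most 0.05 were unlike in background, with a median of 49.0 fragments in the windows and 3.90 in the rest. The number of peaks per Mb, 55.4 against 72.3, kept its order with widened windows (57.2 against 72.4) and turned round elsewhere. It was 168 against 148 over 10 kb bins that hold a peak, 7.21 against 1.17 with q of at most 0.05, and 93.3 against 74.4 without peakless stretches. The order thus depends on the length and on the peaks counted. The median background of 1.37 fragments became 49.0 with q of at most 0.05, 1.3045 without chromosome 2, 1.72 without chromosome 16 and 1.3045 without the stretches, where the rest had 1.3045 in the last 3. The median fold was 2.82 against 3.67 with q of at most 0.05. At the commonest background, the largest class, it was 2.17 in both. At other matched backgrounds it was 2.22 against 2.15 up to 2 fragments, 2.27 against 2.13 from 2 to 3, 2.14 against 2.12 from 3 to 5 and 2.29 against 2.14 from 5 to 10. It was 2.17 against 1.87 from 10 to 20, 2.42 against 1.45, from 13 peaks, from 20 to 50, and 2.12 against 1.59, from 1 peak, at 50 or more. The whole list outside the windows had medians of 1.76 from 20 to 50 (249 peaks) and 1.85 at 50 or more (83 peaks). The cause of these changes was not tested.

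Each group held 1 library, so nothing here measures variation between cultures. Depth is not stated, and a median of 5 fragments per summit leaves single weak peaks uncertain. No paired analysis was possible because a single sample stood in each group.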
